A study of Mus musculus with 8 samples.

Results

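The 10 genes described here, Acta2, Tagln, Vim, Des, Pdgfrb, Tgfb1, Timp1, Lox, Lrat and Reln, mark hepatic stellate cells and the making of scar matrix in liver. They were taken as a named list, 8 as markers of the activated cell and 2 (Lrat and Reln) as markers of the quiescent cell, with collagens left out. Each was measured by 1 probe set, a group of probes that names that gene alone, so that all 10 members are among the 19938 genes of the comparison. Livers came from female C57B1/6J mice ovariectomized (OVX) at 7 weeks of age and then kept for 3 months on a high fat diet. In 4 mice, HFD+WBM, the diet held freeze-dried powder of white button mushroom (WBM, Agaricus bisporus), and 4 mice, HFD, received the high fat diet without it. All 8 mice were therefore ovariectomized and fat-fed, and no sham-operated or lean liver is among these arrays. The liver RNA of each mouse was hybridized to its own Affymetrix Mouse Gene 1.0 ST array. Values are log2 expression values, on which a difference of 1 is 2-fold.

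Stellate cells lie between hepatocytes and the sinusoids. In healthy liver they are quiescent and store vitamin A as retinyl esters, which Lrat (lecithin retinol acyltransferase) makes, and they secrete reelin, the product of Reln. After injury they become contractile myofibroblasts that express smooth muscle actin, respond to PDGF and TGF-beta, and lay down and cross-link collagen. Several of the markers are shared with other cells: Acta2 and Tagln with vascular smooth muscle, Vim with endothelial cells and macrophages, and Tgfb1 with macrophages.

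Promoter sequences from RefSeq (GRCm38.p6) are shown for Acta2, which defines the activated cell, and for Vim and Lrat, the members whose difference between the diets passed p under 0.05. Of the 10 members, 7 matched the promoter table, and Tagln, Pdgfrb and Lox did not. Each sequence runs 5′ to 3′ from 250 bases before to 50 bases from the start that the promoter table uses. For Vim and Lrat that is the start of the RefSeq gene record, whereas the record of Acta2 begins farther upstream, at base 34255585 within the window shown. Acta2 is at chr19:34255324-34255623 on the minus strand, Vim at chr2:13574061-13574360 on the plus strand and Lrat at chr3:82903925-82904224 on the minus strand. Capitals mark the letters TATAA on either strand, and the CArG box, the element bound by serum response factor, with 1 base of its A/T core changed to C or G.
Acta2: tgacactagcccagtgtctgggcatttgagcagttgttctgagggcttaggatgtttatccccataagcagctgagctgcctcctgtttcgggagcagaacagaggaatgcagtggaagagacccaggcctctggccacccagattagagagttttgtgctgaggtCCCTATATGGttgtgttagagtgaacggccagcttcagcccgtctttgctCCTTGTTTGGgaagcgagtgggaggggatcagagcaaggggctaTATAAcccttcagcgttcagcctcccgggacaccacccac
Vim: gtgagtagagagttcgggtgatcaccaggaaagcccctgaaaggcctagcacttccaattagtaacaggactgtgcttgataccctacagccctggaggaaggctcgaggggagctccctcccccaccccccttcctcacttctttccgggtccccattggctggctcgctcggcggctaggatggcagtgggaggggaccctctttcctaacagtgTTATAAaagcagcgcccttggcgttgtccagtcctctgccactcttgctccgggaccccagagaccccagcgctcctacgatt
Lrat: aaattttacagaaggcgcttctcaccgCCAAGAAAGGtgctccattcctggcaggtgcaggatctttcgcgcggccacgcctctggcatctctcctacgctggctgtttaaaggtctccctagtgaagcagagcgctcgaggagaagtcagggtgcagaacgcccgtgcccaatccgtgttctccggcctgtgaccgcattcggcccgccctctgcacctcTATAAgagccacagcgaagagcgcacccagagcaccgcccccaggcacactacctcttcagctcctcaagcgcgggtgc

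Acta2 held the changed CArG box at 2 places and Lrat at 1, and no other of the 7 promoters held it. The unchanged CArG box was in none of the 7. Of 32851 promoters of the same length, 1.63% held the unchanged CArG box and 8.50% the changed one. TATAA was found in 3 of the 7 promoters and in 24.9% of all promoters, and in Vim its matches on both strands overlap. In Vim and Lrat it lies before the start, whereas in Acta2 it lies 10 to 14 bases past the start that the promoter table uses. GGGCGG was found in 5 of the 7 and in 35.7% of all promoters. TGANTCA was in none of the 7 and in 7.81% of all promoters. These matches describe letters in a window, without data on binding.

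Vim and Lrat were the 2 of 10 members that were lower with HFD+WBM, and none was higher, at p under 0.05 before adjustment in a limma fit of all genes. A gene is said to pass, to be lower or to be higher by that rule alone. Vim, an intermediate filament gene, was 1.56-fold lower and Lrat was 1.47-fold lower. Vim was listed as an activated and Lrat as a quiescent marker, though other cells express Vim too. Over all genes, 6.90% were lower and 4.85% higher by the same rule. No member reached the study's thresholds (p under 0.05 and at least 2-fold), which 0.762% of all genes passed. After Benjamini-Hochberg adjustment over the whole array no member passed (adjusted p of 0.39 to 0.91 from limma). The same held for all 19938 genes (0%), of which 1375 were lower and 966 higher before adjustment, and the methods' t-test, which estimates each gene's variance by itself, also gave 0 adjusted calls. A limma fit whose prior variance depends on signal gave 139 genes at an adjusted p under 0.05, with no member among them. In bulk liver, fewer cells of a type and less RNA per cell cannot be told apart.

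For none of the 10 members did all 4 HFD+WBM values lie on the same side of all 4 HFD values. Among all genes, 5.02% lay wholly below and 3.21% wholly above the HFD mice. The estimate was below 0 for 7 members and above 0 for Des, Timp1 and Lox. The arrays had medians of 7.11 to 7.19 in the HFD+WBM mice and 7.04 to 7.22 in the HFD mice. HFD replicate 3 had the array least like the rest (SD over genes of its difference from their mean 0.68, against 0.38 to 0.50).

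**Figure D1:**
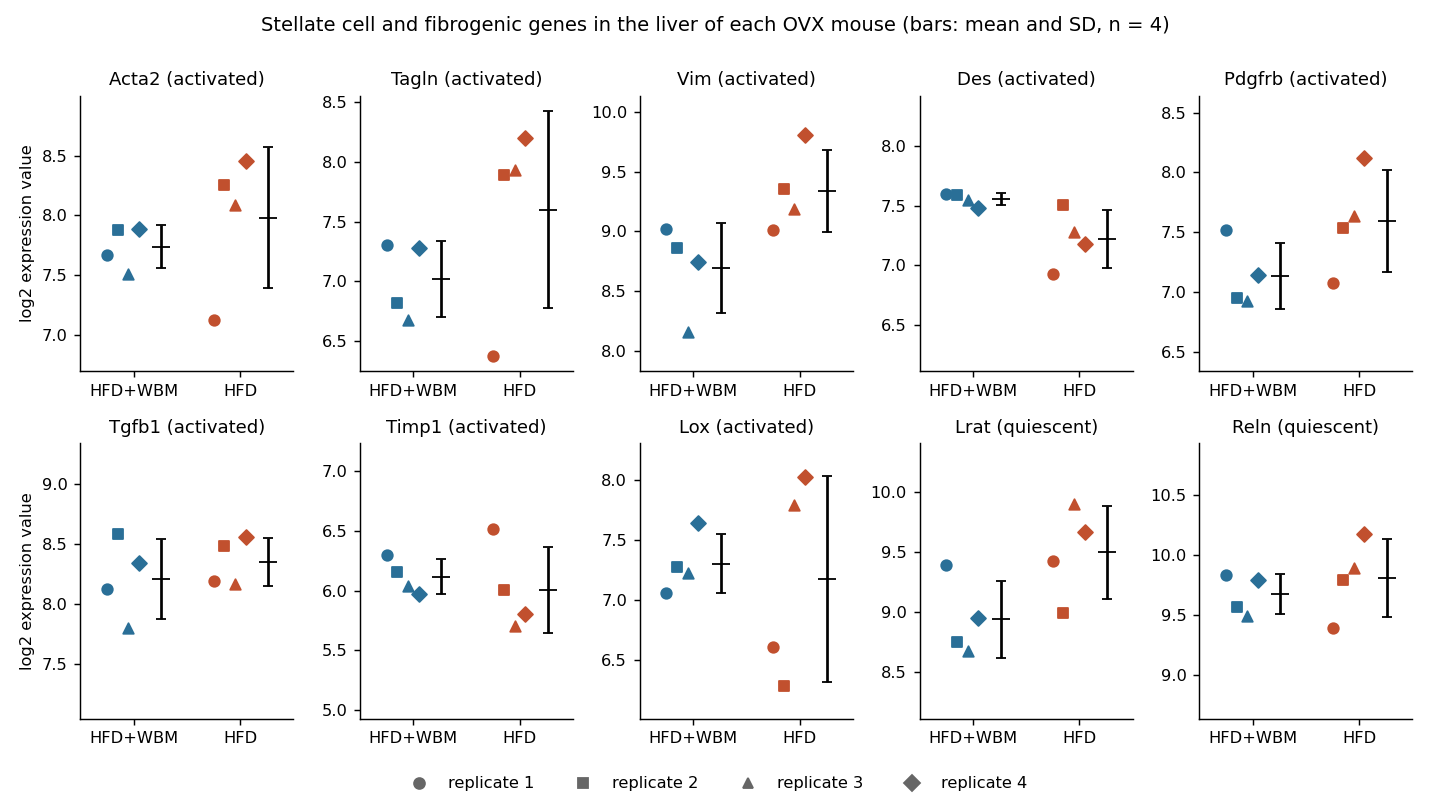
Log2 expression value of each gene (vertical axis, each panel spanning 2.3 log2 units) in 4 HFD+WBM mice (blue) and 4 HFD mice (red), with a marker shape per replicate number and the mean with SD beside the points. The groups overlap for every gene, and HFD replicate 1 (red circle) is the lowest of all mice for Acta2 and Tagln.

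Acta2 encodes alpha smooth muscle actin, the usual marker of the activated stellate cell. Its log2 values were 7.67, 7.88, 7.51 and 7.89 in the HFD+WBM mice, against 7.13, 8.26, 8.09 and 8.45 in the HFD mice. HFD replicate 1 was below all other mice, and the other 3 HFD mice were above all HFD+WBM mice. Acta2 differed by -0.24 on the log2 scale (95% confidence interval -0.86 to 0.37, adjusted p = 0.73 from limma). The exact permutation test, two-sided, gave p = 0.46, where the smallest p that 4 mice against 4 can give is 0.029.

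Tagln encodes transgelin (SM22 alpha), an actin-binding protein of contractile cells, and it followed the same order of mice at both ends. Tagln had log2 values of 7.30, 6.82, 6.68 and 7.28 in the HFD+WBM mice, against 6.38, 7.89, 7.93 and 8.20 in the HFD mice. As for Acta2, HFD replicate 1 was the lowest and HFD replicate 4 the highest mouse. Tagln was 1.49-fold lower with HFD+WBM, with a log2 fold change of -0.58 (standard error 0.37, adjusted p = 0.54 from limma) that did not pass.

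The HFD replicate 1 liver stood apart for both genes. Its value was 1.14 log2 units below the mean of the other HFD mice for Acta2 and 1.63 below it for Tagln. Those gaps rank at the 1.4 and 0.6 percentile of the same difference over all genes, whose median was 0.01. Without that mouse, which was singled out after its values were seen, Tagln had a log2 fold change of -0.98 (1.98-fold lower), Acta2 of -0.53 (1.44-fold) and Pdgfrb of -0.63 (1.55-fold), and each passed without overlap of the groups. Vim was then also free of overlap, so that 4 of 10 members were wholly lower, where 8.49% of all genes were. The limma adjusted p of these 4 genes without that mouse was 0.36 to 0.42. HFD replicate 1 was left out for its low Acta2 and Tagln values, so the lack of overlap for those 2 genes follows from that choice. It was also the lowest HFD mouse for Vim (9.01) and Pdgfrb (7.08), so their overlap ended with its removal as well. The share over all genes carries no such choice, so the 4 of 10 cannot be weighed against it. Without HFD+WBM replicate 1, Vim and Lrat were wholly lower (7.66% of all genes), and without HFD replicate 2 Lrat was (7.78%). No member was wholly lower without any other mouse. Des was wholly higher without HFD+WBM replicate 4 (5.30%) or HFD replicate 2 (5.80%).
In HFD replicate 1 the mean of 5 vascular smooth muscle markers was 6.75, within the 5.46 to 7.08 of the other HFD mice. The 5.46 was that of HFD replicate 3, where the dim gene Cnn1 was at 0.03, against 4.46 to 5.65 in the other HFD mice. HFD replicates 4 and 2 had means of 6.71 and 7.08. The mean of 15 other stellate cell genes was 8.23 in that mouse, against 8.42 to 8.57 in the other 3, and that of 15 macrophage markers was 9.36, against 8.79 to 9.34. The 10 sinusoidal endothelial markers averaged 9.17 there and 9.68 to 9.76 in the remaining HFD livers, and the 9 hepatocyte markers averaged 12.64 there and 12.77 to 12.91 in the remaining HFD livers. The part of these cells in the low Acta2 and Tagln values was not tested.

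Vim encodes vimentin, the intermediate filament of mesenchymal cells. The values of Vim on the log2 scale were 9.02, 8.86, 8.16 and 8.74 in the HFD+WBM mice, against 9.01, 9.35, 9.19 and 9.80 in the HFD mice. The groups overlapped only through HFD+WBM replicate 1, which was just above HFD replicate 1. The mean was 8.70 ± 0.37 in HFD+WBM mice and 9.34 ± 0.34 in HFD mice (SD, n = 4 each), and the exact permutation p was 0.057. Its log2 fold change of -0.64 (standard error 0.24, adjusted p = 0.39 from limma) no longer passed without HFD+WBM replicate 3 (-0.46) or without HFD replicate 4 (-0.49). Over the alternatives the adjusted p of Vim was 0.11 to 0.58.
Markers of other cells were measured too, among them macrophages and sinusoidal endothelial cells, which express Vim. Of the 15 macrophage markers, Kupffer cell genes included, 12 were lower and none was higher (median log2 fold change -0.66), and their mean was 8.26 to 8.81 in HFD+WBM mice, against 8.79 to 9.36 in HFD mice. Of 10 sinusoidal endothelial markers, 2 were lower and 8 did not pass (median -0.27). None of the 7 measured lymphocyte markers (median 0.09), the 6 portal fibroblast markers (-0.03) or the 5 vascular smooth muscle markers (0.14) passed. The part of any of these cell types in the Vim value was not tested.

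Des encodes desmin, an intermediate filament that rodent stellate cells carry in the quiescent state too, and its estimate ran against that of Vim. Log2 values of Des were 7.60, 7.59, 7.54 and 7.48 in the HFD+WBM mice, against 6.92, 7.50, 7.28 and 7.18 in the HFD mice. The HFD+WBM mice lay close together, and HFD replicate 2 alone reached into their range. The log2 fold change of 0.33 (standard error 0.16, limma) missed the threshold with p = 0.059, and the exact permutation p was 0.057. Des passed by the methods' t-test and, without HFD replicate 2, by limma (log2 fold change 0.43, adjusted p = 0.40).

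**Figure D2:**
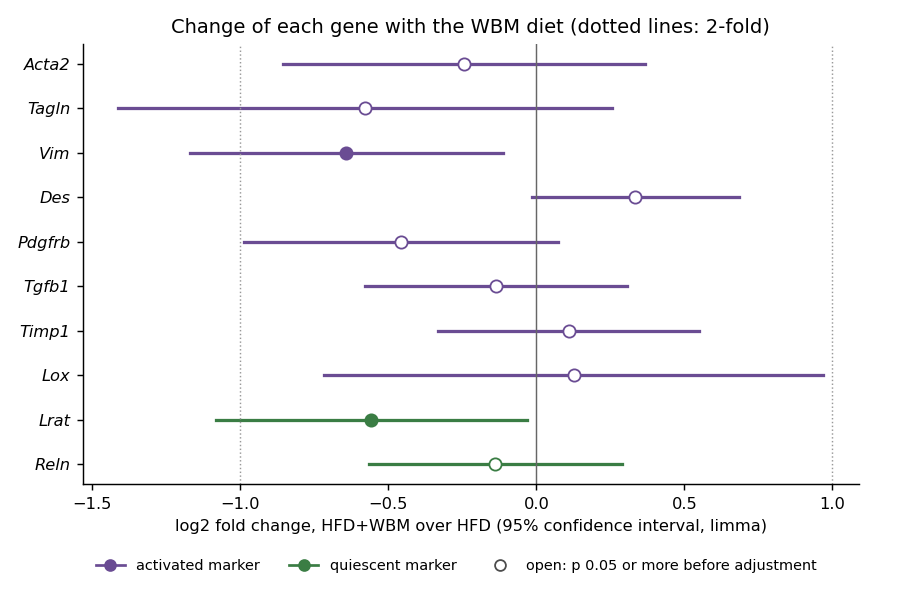
Log2 fold change of each gene, HFD+WBM over HFD (4 mice each), with its 95% confidence interval from limma. Filled points have p under 0.05 before adjustment. Only the intervals of Vim and Lrat lie wholly below 0, and those of Tagln, Vim and Lrat reach beyond a 2-fold fall.

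Pdgfrb encodes the PDGF receptor beta, through which PDGF drives division of activated stellate cells. For Pdgfrb the log2 values were 7.52, 6.95, 6.93 and 7.14 in the HFD+WBM mice, against 7.08, 7.53, 7.64 and 8.12 in the HFD mice. HFD replicate 1 lay among the HFD+WBM mice, and HFD+WBM replicate 1 lay just below the other 3 HFD mice. The log2 fold change was -0.46 (95% confidence interval -0.99 to 0.07, adjusted p = 0.47 from limma), and it passed without HFD+WBM replicate 1 (-0.59) as well as without HFD replicate 1. Of 5 other genes of PDGF ligands and receptors, Pdgfa, which encodes the A chain, was 1.41-fold lower (adjusted p = 0.38 from limma) and 4 did not pass (median of the list -0.30). Pdgfa had 7.96, 7.77, 7.81 and 7.42 in HFD+WBM mice, all below the 8.13, 8.32, 8.06 and 8.42 of HFD mice, and it passed under all 18 alternatives.

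Tgfb1 encodes the cytokine TGF-beta 1, the main signal for collagen synthesis. Its log2 values were 8.12, 8.58, 7.80 and 8.34 in the HFD+WBM mice, against 8.19, 8.48, 8.16 and 8.55 in the HFD mice. The groups covered almost the same range apart from the low HFD+WBM replicate 3. Tgfb1 differed by -0.14 on the log2 scale (95% confidence interval -0.58 to 0.31), and by 0.0004 without that mouse.
Genes along the TGF-beta pathway gave few calls. None of 7 genes of ligands and activators passed (median log2 fold change -0.13). Nearest to the threshold was Thbs1, a thrombospondin that activates latent TGF-beta, with 5.50, 5.20, 3.35 and 5.71 in HFD+WBM mice, against 5.53, 5.85, 5.87 and 7.28 in HFD mice (exact permutation p = 0.057). Thbs1 passed under 10 of 17 alternatives, among them the fits without HFD+WBM replicate 1, HFD+WBM replicate 4 or HFD replicate 1. None of 12 genes of receptors, Smads and their inhibitors passed (median -0.10), and the receptor gene Tgfbr2 came nearest (log2 fold change -0.38, adjusted p = 0.46 from limma). Of 7 measured target genes, Junb, an AP-1 transcription factor and immediate early gene, was 1.58-fold higher (adjusted p = 0.38 from limma, and past the threshold in all 18 alternatives) and 6 did not pass (median of the list -0.07).

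Timp1 encodes an inhibitor of matrix metalloproteinases that activated stellate cells release. Timp1 had log2 values of 6.30, 6.16, 6.04 and 5.97 in the HFD+WBM mice, against 6.51, 6.01, 5.70 and 5.81 in the HFD mice. HFD replicate 1, the lowest mouse for Acta2 and Tagln, was the highest for Timp1. Its log2 fold change was 0.11 (95% confidence interval -0.33 to 0.55). Of 13 genes of matrix proteases and inhibitors, Plau, the urokinase gene, was 1.86-fold lower (5.35 ± 0.45 in HFD+WBM mice and 6.25 ± 0.61 in HFD mice, SD, n = 4 each; adjusted p = 0.39 from limma) and 12 did not pass (median of the list -0.25). Plau did not pass by the methods' t-test, nor without HFD+WBM replicate 3, HFD replicate 3 or HFD replicate 4 (log2 fold change -0.67, -0.66 and -0.83).

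Lox encodes lysyl oxidase, which cross-links collagen, and it had the highest SD of the members in the HFD mice (0.86, next to 0.82 for Tagln). Lox had log2 values of 7.06, 7.27, 7.23 and 7.64 in the HFD+WBM mice, against 6.60, 6.28, 7.79 and 8.02 in the HFD mice. All HFD+WBM mice lay in the gap between the 2 low and the 2 high HFD mice. Its log2 fold change was 0.13 (95% confidence interval -0.72 to 0.97), and it turned to -0.06 without HFD replicate 1 and to -0.17 without HFD replicate 2. Of 7 other measured genes of cross-linking enzymes, Tgm2, a transglutaminase, was 1.42-fold lower (adjusted p = 0.40 from limma) and 6 did not pass (median of the list -0.22).
Tgm2 passed under 12 of 18 alternatives, and not with array weights, nor without HFD+WBM replicate 2, HFD+WBM replicate 3, HFD replicate 1, HFD replicate 3 or HFD replicate 4.

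For 8 of the 10 members the SD between mice was smaller in HFD+WBM than in HFD livers, and Vim and Tgfb1 were the exceptions. The same held for 56.4% of all genes. The median SD of the members was 0.26 in HFD+WBM mice and 0.37 in HFD mice, against 0.26 and 0.29 over all genes. HFD replicate 1 was the lowest of all 8 mice for 4 members, and HFD replicate 4 was the highest for 6. The part of these single mice in the SDs was not tested. These counts are a description and were not tested.

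**Figure D3:**
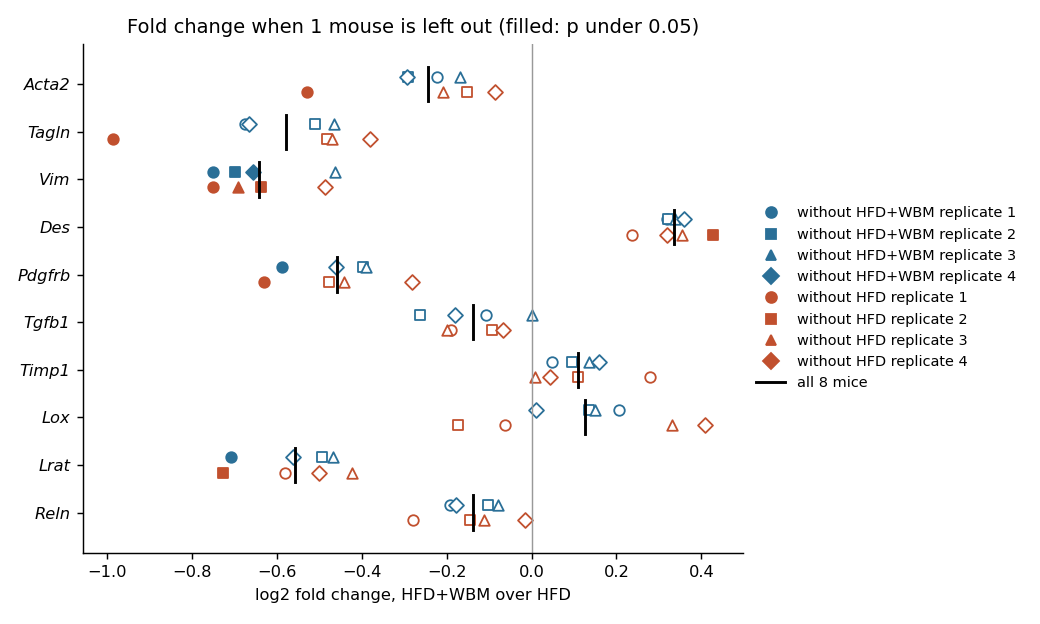
Log2 fold change of each gene, HFD+WBM over HFD, with all 8 mice (black line) and after leaving out 1 HFD+WBM mouse (blue) or 1 HFD mouse (red), with filled markers for p under 0.05 before adjustment by limma. Leaving out HFD replicate 1 moves Tagln to -0.98 and Acta2 to -0.53, and Lox changes sign.

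Among the quiescent markers Lrat was lower and Reln was not. Lrat had log2 values of 9.39, 8.75, 8.67 and 8.95 in the HFD+WBM mice, against 9.43, 8.99, 9.90 and 9.67 in the HFD mice. HFD+WBM replicate 1 lay among the HFD mice, and HFD replicate 2 lay just above the other 3 HFD+WBM mice. The mean was 8.94 ± 0.32 in HFD+WBM mice and 9.50 ± 0.39 in HFD mice (SD, n = 4 each). Lrat differed by -0.56 on the log2 scale (standard error 0.23, adjusted p = 0.41 from limma), and the exact permutation p was 0.057. It passed without HFD+WBM replicate 1 or HFD replicate 2 and did not pass without any other single mouse (p up to 0.10). With the replicate block the p was 0.053, and by the methods' t-test it was 0.069.
Reln had log2 values of 9.83, 9.57, 9.50 and 9.79 in the HFD+WBM mice, against 9.39, 9.79, 9.89 and 10.18 in the HFD mice. The HFD+WBM values lay within the HFD range, between HFD replicate 1 and HFD replicate 4. Reln differed by -0.14 on the log2 scale (95% confidence interval -0.56 to 0.29).

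Other genes that mark stellate cells were measured beside the members, and 1 of them was called. The share of stellate cells in these livers was not tested. Of 15 measured genes, 14 did not pass and the median log2 fold change was -0.02. The log2 fold changes of those 14 ran from -0.43 for Adamtsl2 to 0.39 for Ngfr, a neurotrophin receptor gene. Hand2, a transcription factor of stellate cells, was 1.51-fold higher (standard error 0.15 on a log2 fold change of 0.59, adjusted p = 0.37 from limma). Its log2 values of 7.71, 7.71, 7.67 and 7.83 in HFD+WBM mice were all above the 6.83, 7.18, 7.21 and 7.33 of HFD mice, and it passed under all 18 alternatives.

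Genes next to Lrat and Reln in their pathways gave calls in opposite directions. Of 10 measured genes of retinoid handling, 2 were lower, Bco1, which cleaves beta-carotene (1.55-fold, adjusted p = 0.39 from limma), and Rarb, a retinoic acid receptor (1.45-fold, adjusted p = 0.41), and none was higher (median -0.16). Neither passed without HFD+WBM replicate 3, HFD replicate 3 or HFD replicate 4, nor Bco1 without HFD+WBM replicate 1 or Rarb without HFD+WBM replicate 2. Rarb also did not pass by the methods' t-test, with array weights or with the replicate block. Of the 3 genes of reelin receptors and adaptor, Vldlr, a receptor for reelin and for lipoproteins, was 1.79-fold higher (median of the list 0.32). It had log2 values of 9.39, 9.34, 9.15 and 9.52 in HFD+WBM mice, all above the 8.58, 8.73, 8.19 and 8.54 of HFD mice (adjusted p = 0.35 from limma). Vldlr passed under all 18 alternatives, with a log2 fold change of 0.74 to 0.92 and an adjusted p of 0.0064 (with the signal-dependent prior variance) to 0.57. Lrp8, the other receptor (log2 fold change 0.32), and Dab1, the adaptor (0.01), did not pass.

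Activated and quiescent markers were also compared with each other within each mouse, and the groups overlapped. The mean of the 8 activated markers was 7.47 ± 0.16 in HFD+WBM mice and 7.66 ± 0.33 in HFD mice, and that of Lrat and Reln was 9.31 ± 0.24 in HFD+WBM mice and 9.65 ± 0.29 in HFD mice (log2, SD, n = 4 each). The median log2 fold change of the activated markers was -0.19 and the mean of the quiescent pair was -0.35, against a median of 0.01 over all genes. Activated minus quiescent, within each mouse, was -2.04, -1.65, -1.85 and -1.81 in the HFD+WBM mice, against -2.18, -1.73, -2.17 and -1.91 in the HFD mice. The highest and the second highest of these were HFD+WBM replicate 2 and HFD replicate 2. The difference between the group means was 0.16, smaller than the 0.22 SD of the HFD mice.

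**Figure D4:**
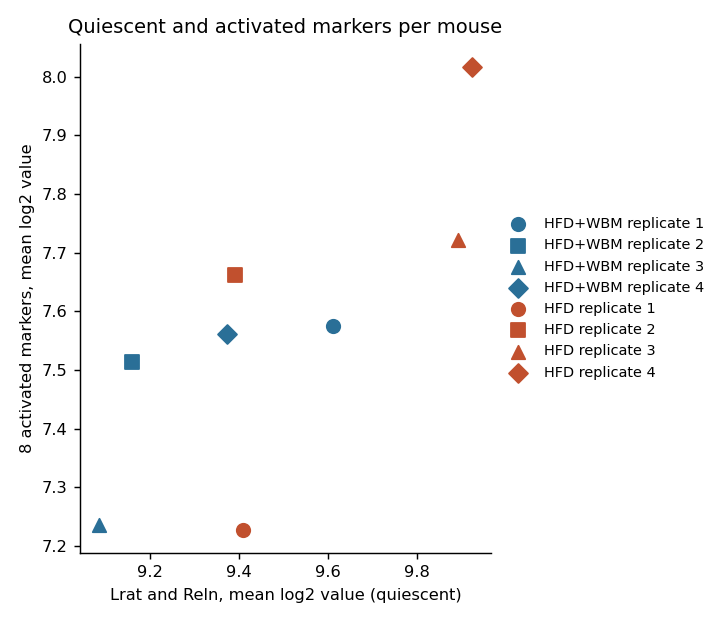
Mean log2 value of the 8 activated markers (vertical axis) against that of Lrat and Reln (horizontal axis) in each mouse, HFD+WBM in blue and HFD in red, with a marker shape per replicate number. HFD replicate 4 is highest on both axes, HFD+WBM replicate 3 is lowest for the quiescent pair, and HFD replicate 1 (7.23) is lowest for the activated markers.

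Contractile genes other than the members gave a mixed picture. Of 12 genes of the smooth muscle contractile apparatus and targets of serum response factor, Tpm1, a tropomyosin, was 1.38-fold lower with every HFD+WBM value below every HFD value (adjusted p = 0.39 from limma). Cald1, caldesmon, was 1.38-fold lower (adjusted p = 0.40), 10 did not pass, and the median of the list was -0.02. Both lost their call without HFD+WBM replicate 2, HFD+WBM replicate 3 or HFD replicate 4, and Cald1 also without HFD+WBM replicate 4 or HFD replicate 2, with quantile normalization and with the replicate block. The 5 markers of vascular smooth muscle are all among those 12 genes, so they are no separate observation. None of the 5 passed (median 0.14), and the transcription factor gene Myocd came nearest (log2 fold change 0.29). Of 12 other measured genes of activation and matrix without collagens, 2 were lower and none was higher (median -0.22). They were Lum, the proteoglycan lumican (1.51-fold, adjusted p = 0.41 from limma), and Tnc, the matrix glycoprotein tenascin C (2.12-fold, adjusted p = 0.42). Tnc was at 2.64 in HFD+WBM replicate 3 and at 4.85 to 4.92 in the other 3 mice of that diet, and without replicate 3 its log2 fold change was -0.53 in place of -1.09. Lum did not pass without any of HFD+WBM replicates 1, 2 and 3 and HFD replicates 3 and 4, nor Tnc without any single HFD mouse. By the methods' t-test and with array weights neither passed, and Lum also did not pass with centred arrays, quantile normalization or the replicate block (7 of 17 alternatives passed for Lum and 11 of 17 for Tnc).

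Markers of the other cells of liver were measured beside these. The 3 macrophage markers with the smallest p were C1qc, a complement gene (1.74-fold lower), Cd68, a lysosomal protein gene (1.68-fold), and Lyz2, lysozyme (1.69-fold), each with all HFD+WBM values below all HFD values and past the threshold in all 18 alternatives. The endothelial markers that were lower were Lyve1, a hyaluronan receptor gene (2.00-fold, groups apart), and Cdh5, the VE-cadherin gene (1.43-fold), and Cdh5 did not pass by the methods' t-test, with the replicate block, or without HFD+WBM replicate 1, HFD+WBM replicate 3, HFD replicate 3 or HFD replicate 4. None of 9 measured markers of hepatocytes (median 0.07), 5 of cholangiocytes (-0.21), 6 of portal fibroblasts (-0.03), 4 of mesothelial cells (0.03) and 7 of lymphocytes (0.09) passed. Nearest to the threshold in each list were Hnf4a for hepatocytes (log2 fold change 0.30), Krt7 for cholangiocytes (0.40), Cd34 for portal fibroblasts (-0.32), Upk3b for mesothelial cells (0.28) and Cd79a for lymphocytes (0.67).

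**Figure D5:**
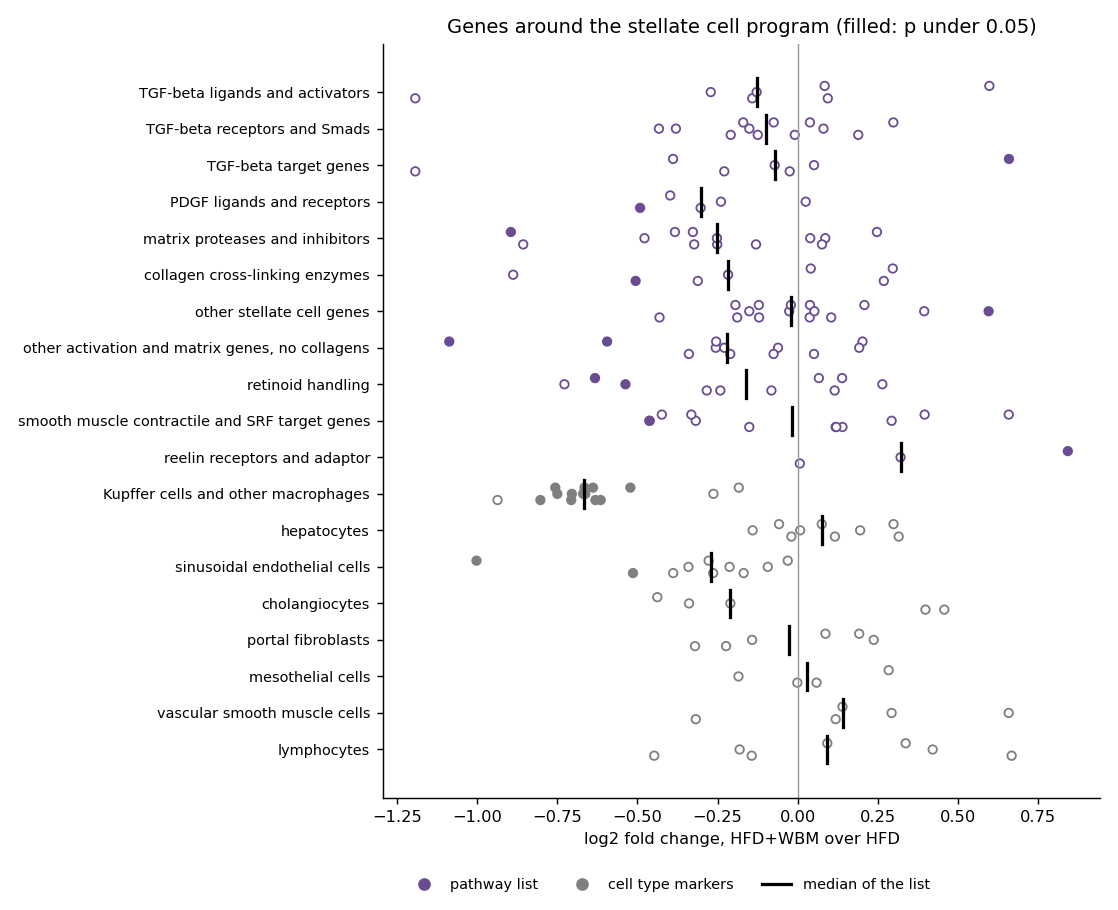
Log2 fold change, HFD+WBM over HFD (4 mice each), of the genes of each pathway list (purple) and each list of cell type markers (grey), with the median of the list as a black line and filled points for p under 0.05 before adjustment by limma. The macrophage markers lie at a median of -0.66, and the other stellate cell genes at -0.02 with Hand2 as their only filled point.

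The genes with the values most like those of Acta2 over the 8 arrays were Tsc1, Dnase2b and Npy6r, with Pearson's r of 0.97, 0.97 and 0.97 and Spearman's rho of 0.98, 0.98 and 1.0. Without HFD replicates 1 and 4, the mice farthest from the median of Acta2, r was 0.96, 0.99 and 0.93. Those most like Lrat were Smu1, Eif3l and Hmgb2, with r of 0.99, 0.99 and 0.99 and rho of 0.95, 1.0 and 0.98. They are the highest of all genes and are given as a description, since the 8 arrays also share their normalization. No member was among them.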

How the data were processed

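Liver RNA of 8 OVX mice was analysed, 4 HFD+WBM and 4 HFD, grouped by the submitters' titles, with 1 array per mouse and no other samples used here. Per the study's methods and the submitters' processing notes, the authors used IterPLIER with background correction and normalization in Affymetrix Power Tools 1.8.6 and deposited log2 values for each probe set. The sources used here do not state an offset ahead of the log or a genome build, so dim genes carry no background limit. Of 28944 probe sets, 21789 name a single gene in the platform annotation, and gene names were updated through gene numbers to RefSeq (21698 matched and 91 kept), and the brightest per gene was kept (19938 genes). All genes were fitted with lmFit and eBayes (limma 3.58.1, R 4.3.3) on diet alone, with Benjamini-Hochberg adjustment. The fits were tested on simulated data. Standard errors are limma's. The methods' t-test is the study's test for the diets, run here per gene with equal variances; for the arrays the study names ArrayTools and its thresholds. Alternatives were array centring, quantile normalization, offsets of 16 and 64, the brighter 50% of genes, the mean of a gene's probe sets, a level-dependent prior, array weights, a replicate block, a 1.5-fold threshold and leaving out each mouse. The overlap of groups without each mouse, and the values of HFD replicate 1, were examined after seeing the data. P-values set the difference between the diets against the spread between mice of the same diet, in these 8 livers alone. In limma that spread is moderated by the variances of all genes.

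The members and the gene lists were chosen with earlier results of these data known. Named genes are all members, up to 3 genes per list with the smallest p under 0.05 (or the 1 smallest where none passed), and the 3 genes most like Acta2 and Lrat. Adamtsl2, Ngfr, Lrp8 and Dab1 were added after their values were seen. Mice with the same replicate number did not deviate together. The number of arrays limits the precision.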

Additional observations from a re-analysis of the deposited data

Results flagged for a closer look

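Tagln in HFD replicate 1 had a log2 value of 6.38, against 7.89 to 8.20 in the other 3 HFD mice, a gap that was 0.83 of the whole range of the group and just past Dixon's critical value for 4 samples. It was the only such value among 26 groups tested (10 genes and 3 means, in each diet), where chance alone flags about 1 in 20 groups.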

How the results depend on the processing

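With all mice, 2 members were lower, none was higher and none passed the study's thresholds. The number lower was 4 with an offset of 64 before the log2 (Tagln and Pdgfrb added) and 1 with the methods' t-test, with array weights and with the replicate block, Lrat being the gene that no longer passed in each of the last 3. Over all genes the share lower was 8.53%, 7.66%, 7.30% and 5.06% in those settings, in the same order, against 6.90% in the main fit. The number higher was 1 (Des) with the brighter 50% of genes, which holds 8 of the members and gave 3 lower (Pdgfrb added), and with the methods' t-test. Of the brighter 50% of genes, 12.0% were lower and 7.27% higher, and by the methods' t-test 5.36% of all genes were higher. At a threshold of 1.5-fold with p under 0.05, Vim (1.56-fold) passed and Lrat (1.47-fold) did not. The share of all genes past that threshold is not given here, so this is no result about the members as a set. Leaving out 1 mouse moved the number lower between 0 (without HFD+WBM replicate 3 or HFD replicate 4) and 4 (without HFD replicate 1), the number higher between 0 and 1, and the median of the activated markers between -0.36 and -0.08. The mean of the quiescent pair ranged from -0.45 to -0.26, and no mouse left out brought a member past the study's thresholds. Of all genes, 4.53% were lower without HFD+WBM replicate 3, 4.98% without HFD replicate 4 and 6.85% without HFD replicate 1. Without HFD replicate 2, where Des was higher, 5.18% of all genes were higher. Estimates changed sign for Tgfb1 (0.0004 without HFD+WBM replicate 3, in a range of -0.26 to 0.0004 over mice left out) and Lox (-0.06 without HFD replicate 1 and -0.17 in the fit that omits HFD replicate 2, in a range of -0.17 to 0.41), and for no other member under the alternatives run. Of 178 values of single members, 154 kept their direction and their side of p under 0.05. The cause of these shifts was not tested.
The labels number the mice 1 to 4 in each diet without stating what a number shares. The deviations of same-numbered mice correlated at -0.12 to -0.02 over genes, so that the numbers were not taken as pairs. Over the settings 9 to 13 macrophage markers were lower (11 of the 12 that the brighter 50% of genes holds), and the other stellate cell genes gave 1 or 2 higher and 0 lower. In the same settings 4.53% to 12.0% of all genes fitted were lower and 3.43% to 7.27% higher.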
